A study of Mus musculus with 6 samples.

Results

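The cytosolic ribosomal protein genes were examined in quadriceps muscle of mice bearing human renal cancer cells. Members were taken by platform symbol: Rpl, Rps or Rplp followed by digits and optionally a, l, x or y, leaving out the Rps6k kinases and pseudogenes. This gave 62 of the 19057 genes named on the array, 38 of the large and 24 of the small subunit. Of these, 56 (34 large, 22 small) were detected on at least 2 of the 6 arrays, at a detection p below 0.05, and were tested. Rpl14, Rpl17, Rpl39l, Rpl6, Rps20 and Rps23 were not tested. Of the tested members, 55 were detected on every array.

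All mice were of the NOD-SCID strain, which has no functional T and B lymphocytes, fed freely and transplanted under the skin with tumour cells 22 days before muscle was taken. The cells were RXF393, called cachectic in the labels, or SKRC39, called not cachectic, and no tumour-free muscle is part of the comparison. Total RNA was read on the Illumina MouseWG-6 v2.0 beadchip, in 6 RNA samples extracted mouse by mouse. The study names 3 mice, and whether this is a total or a count for each line is not stated. Read here as 3 per line, the p-values measure the spread between mice, but were the 3 mice the total, arrays would share animals and the p-values and standard errors would not measure that spread. Age, sex and further alleles of the mice are not given in the sources used here. On 4 arrays the title and the characteristics give the same cells, and these form the comparison, SKRC39 replicates 1 and 2 with RXF393 replicates 2 and 3. The array titled RXF_1 is called SKRC39 in its characteristics and the array titled SKR_3 is called RXF393, so these 2 arrays belong to no group and their values are given apart.

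A ribosome is built from a small subunit, which reads the mRNA, and a large subunit, which joins amino acids, and each is made of ribosomal RNA and ribosomal proteins. In vertebrates the mRNAs of ribosomal proteins typically start with a C followed by a run of pyrimidines, the terminal oligopyrimidine tract, through which LARP1 and mTORC1 control their translation. Skeletal muscle also makes Rpl3l, a muscle-restricted paralogue of Rpl3.

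The sequence around the annotated transcription start is shown for the 4 tested members with the most negative change and for the 3 with the most positive, as the place where this tract is read. Each line holds 20 bases before and 20 bases after the start, 5′ to 3′ on the gene's strand, from RefSeq, build GRCm38.p6. Capitals mark the longest run of C and T that opens with a C between position -5 and position 10 of that start. Rps7 lies at chr12:28635934-28635973 on the minus strand, Rps6 at chr4:86857348-86857387 on the minus strand, Rpl27 at chr11:101442225-101442264 on the plus strand and Rps3 at chr7:99483690-99483729 on the minus strand. Rpl22l1 lies at chr3:28805488-28805527 on the plus strand, Rpl4 at chr9:64173367-64173406 on the plus strand and Rps3a1 at chr3:86142649-86142688 on the minus strand.
Rps7: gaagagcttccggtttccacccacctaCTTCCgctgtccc
Rps6: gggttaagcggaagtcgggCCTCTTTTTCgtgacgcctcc
Rpl27: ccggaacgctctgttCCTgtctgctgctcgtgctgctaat
Rps3: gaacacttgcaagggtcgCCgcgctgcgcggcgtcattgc
Rpl22l1: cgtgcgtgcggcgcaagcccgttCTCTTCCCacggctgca
Rpl4: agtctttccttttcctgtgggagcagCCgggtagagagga
Rps3a1: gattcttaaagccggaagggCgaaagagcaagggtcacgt

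A C followed by at least 4 bases that were each C or T, searched on the gene's strand in that window, was found in 32 of 61 promoters of 51 members, or 52.5%. Among all 32851 promoters in the same table the share was 23.2%. Runs of 10 or more were found in 14.8% of the members' promoters and 2.63% of all promoters. Rps6, Rps7 and Rpl22l1 hold such a tract in this window, and Rpl27, Rps3, Rpl4 and Rps3a1 do not. Genes with and without a match in the window thus stand at both ends of the changes. The Rpl4 line does hold a longer run of C and T, which opens with a C before the window. A gene without a match may therefore still have a tract. The 28 tested members with a match had a median log2 change of 0.15, between -2.45 and 1.62. The 19 without a match, Rpl4 among them, had a median of -0.03, between -1.63 and 1.13. A match is a description of letters near an annotated start, which may differ from the start used in muscle.

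Between RXF393 and SKRC39 muscle, no cytosolic ribosomal protein gene passed the test. The count was 0 of 56 higher and 0 of 56 lower at an adjusted p of 0.05 in limma, where 0.196% of all 10196 genes tested were called higher and 0.157% lower. No member reached an unadjusted p of 0.05 either, against 1508 of all genes, and the lowest adjusted p of a member was 0.39 in limma, for Rpl4. The median change of the members, RXF393 minus SKRC39, was 0.15 on the log2 scale and that of all genes was 0.07. Members spread less than genes at large, with quartiles at -0.36 and 0.38 against -0.56 and 0.63. The distance between quartiles was 0.73 for members and 1.19 for all genes. Of the sets described below, translation factors had 0.77, mitochondrial ribosomal proteins 0.90 and ribosome biogenesis genes 1.19. A narrower spread is thus not particular to the members. The members were also brighter, with a median log2 intensity of 14.4 against 8.46. The part of brightness in the spread was not tested. In bulk muscle RNA, fewer cells of a type and less RNA per cell cannot be told apart.

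Of the tested members, 35 had a positive and 21 a negative change, so 62.5% were positive against 53.5% of all genes. In the large subunit 21 values were positive and 13 negative, with a median of 0.12. In the small subunit 14 were positive and 8 negative, with a median of 0.15. The subunits therefore had similar medians, while the lowest value was a small subunit gene, Rps7, and the highest a large subunit gene, Rpl22l1. Only 3 members were more than 2-fold higher and 5 more than 2-fold lower, which is 5.36% and 8.93% of members against 13.9% and 14.01% of all genes. The standard errors of the members ran from 0.18 to 1.54 on the log2 scale.

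**Figure D1:**
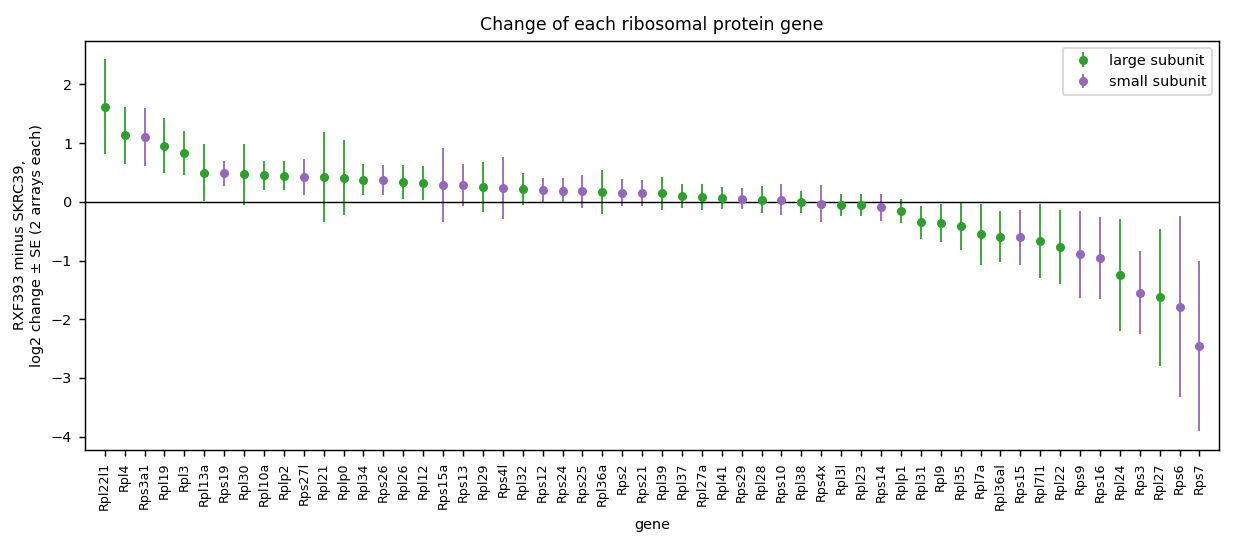
Log2 change of each of the 56 tested members, RXF393 minus SKRC39, with the standard error of the fit, 2 arrays per line. Most points lie near 0, a tail of 5 genes below -1 has wide error bars, and 3 genes lie above 1.

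Both RXF393 arrays lay above both SKRC39 arrays for 17 members, or 30.4%, close to the 28.1% of all genes with that order. Both lay below for 2 members, Rps3 and Rpl23, or 3.57%, against 20.6% of all genes. For Rpl23 this order came from its brightest probe, near the top of the scale, with a change of -0.06. The other tested Rpl23 probes had changes of 1.09 and 0.34, with both RXF393 arrays above both SKRC39 arrays. For the other 37 members the groups overlapped. Of the 17 members, 11 belong to the large and 6 to the small subunit.

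The most positive change was that of Rpl22l1, a paralogue of the large subunit protein Rpl22. Its normalized log2 intensity was 6.47 on SKRC39 replicate 1, 7.58 on SKRC39 replicate 2, 7.87 on RXF393 replicate 2 and 9.41 on RXF393 replicate 3. The groups did not overlap, but SKRC39 replicate 2 and RXF393 replicate 2 lay close together. The change was 1.62 ± 0.81 (SE, 2 arrays per line) with an adjusted p of 0.448 in limma. On the arrays with conflicting labels Rpl22l1 stood at 6.89 for the one titled RXF_1 and 9.30 for the one titled SKR_3.

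Rpl4, a large subunit protein that lines the tunnel through which the new peptide leaves, read 10.23 and 11.005 in the SKRC39 samples and 11.40 and 12.10 on the RXF393 arrays. The order was the same as for Rpl22l1, with RXF393 replicate 2 just above SKRC39 replicate 2. Its change was 1.13 ± 0.48 (adjusted p 0.39 in limma), and it read 10.85 on the array titled RXF_1 and 12.21 on that titled SKR_3.

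Rps3a1, a small subunit protein, read 9.89 and 10.24 in the SKRC39 samples and 10.74 and 11.60 on the RXF393 arrays. It gave the most positive value in the small subunit, 1.11 ± 0.50 (adjusted p 0.409 in limma). On the array titled RXF_1 it read 10.65, above both SKRC39 arrays, and on that titled SKR_3 it read 11.39.

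Rpl19, which forms a bridge between the subunits, read 11.66 and 12.86 in the SKRC39 samples and 12.98 and 13.45 on the RXF393 arrays. Here the SKRC39 arrays lay further apart than the group means, which differed by 0.96 ± 0.46 (adjusted p 0.435 in limma). Rps19, the first ribosomal protein gene found mutated in human Diamond-Blackfan anaemia, read 15.17 and 15.45 in the SKRC39 samples and 15.73 and 15.86 on the RXF393 arrays. Its change was small and its arrays close, 0.49 ± 0.22 (adjusted p 0.406 in limma). Rpl13a, which in human cells also takes part in silencing inflammatory mRNAs, had a change of 0.49 ± 0.49, and Rpl30 one of 0.46 ± 0.52.

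The most negative changes rested mainly on RXF393 replicate 3. Rps7, a small subunit protein, read 14.22 and 12.34 in the SKRC39 samples, 13.30 on RXF393 replicate 2 and 8.37 on RXF393 replicate 3. RXF393 replicate 2 lay between the SKRC39 arrays and only replicate 3 was low. The change was -2.45 ± 1.45 (adjusted p 0.503 in limma), and without RXF393 replicate 3 it was 0.01. The array titled SKR_3 was also low for Rps7, at 8.86, and that titled RXF_1 was not, at 13.98.

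Rps6, the small subunit protein phosphorylated by the S6 kinases downstream of mTORC1, had the same form. It read 12.77 and 9.95 in the SKRC39 samples and 11.95 and 7.19 on the RXF393 arrays. The SKRC39 arrays were themselves far apart, with RXF393 replicate 2 between them, and the change was -1.79 ± 1.54 (adjusted p 0.615 in limma). Without RXF393 replicate 3 its sign turned, to 0.59. The arrays titled RXF_1 and SKR_3 read 11.76 and 8.02.

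Rpl27, a large subunit protein, read 13.79 and 12.52 in the SKRC39 samples and 13.53 and 9.53 on the RXF393 arrays. Again only RXF393 replicate 3 lay below the SKRC39 range. Its change of -1.63 ± 1.17 (adjusted p 0.561 in limma) became 0.37 without that array. Rpl24, which bridges the subunits, read 12.49 and 10.45 in the SKRC39 samples and 11.45 and 8.98 on the RXF393 arrays, a change of -1.25 ± 0.95 (adjusted p 0.58 in limma) that became -0.02 without RXF393 replicate 3.

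Rps3, which helps shape the site where mRNA enters the small subunit, was the one member of this set whose groups did not overlap. It read 13.66 and 13.53 in the SKRC39 samples and 13.25 and 10.85 on the RXF393 arrays. RXF393 replicate 2 was only slightly below the SKRC39 arrays, while replicate 3 was far below them, and the array titled SKR_3 read 11.11 beside 13.56 on that titled RXF_1. The change was -1.55 ± 0.71 (adjusted p 0.42 in limma) and was -0.34 without RXF393 replicate 3.

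Rps9 and Rps16, both small subunit proteins, had changes of -0.90 ± 0.74 and -0.96 ± 0.70, and Rpl22 one of -0.77 ± 0.63. Without RXF393 replicate 3 they were 0.41, 0.19 and 0.18. In 7 of the 8 members with the most negative changes, RXF393 replicate 2 was at or above the lower SKRC39 array, and in all 8 RXF393 replicate 3 was below it. Without RXF393 replicate 2, which leaves replicate 3 alone to stand for the line, 5 members were called lower in limma, namely Rps7, Rps9, Rps16, Rps3 and Rpl27, and 0 higher. That is 8.93% of members, where 2.72% of all genes were called lower and 1.7% higher in the same fit.

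**Figure D2:**
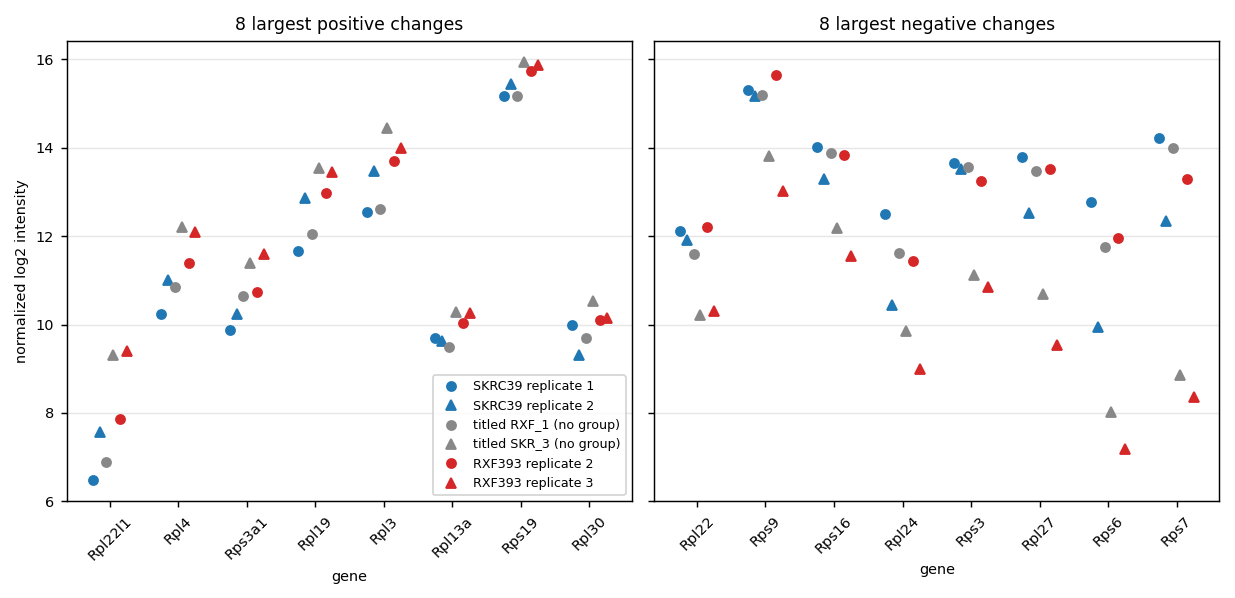
Normalized log2 intensity of the 8 members with the most positive and the 8 with the most negative change on each of the 6 arrays, blue for SKRC39, red for RXF393 and grey for the arrays with conflicting labels. For Rps7 the lowest points are RXF393 replicate 3 at 8.37 and the array titled SKR_3 at 8.86, while RXF393 replicate 2 at 13.30 lies among the SKRC39 values.

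RXF393 replicate 3 thus stood apart from its fellow array for part of the members. It was more than 2-fold below RXF393 replicate 2 for 12 members and more than 2-fold above it for 2, or 21.4% and 3.57%, against 13.6% and 14.7% of all genes. The RXF393 arrays lay further apart than the group means for 38 members, 67.9% against 52.8% of all genes, and the SKRC39 arrays for 26. The largest distance between the RXF393 arrays was 4.93 on the log2 scale, that of Rps7.

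The array titled SKR_3 resembled RXF393 replicate 3 in these genes. Their median absolute difference over the tested members was 0.15 on the log2 scale, and 1 member differed by more than 2-fold. The array titled RXF_1 and SKRC39 replicate 1 differed by a median of 0.13, with 1 member beyond 2-fold. RXF393 replicates 2 and 3 differed by 0.45, with 14 members beyond 2-fold, and RXF393 replicate 2 differed from SKRC39 replicate 1 by 0.17, with 5. Over all genes the median absolute difference was 0.24 for each of the close pairs and 0.62 between the RXF393 replicates. Between RXF393 replicate 2 and SKRC39 replicate 1 it was 0.53. The order is thus not particular to the ribosomal protein genes, but the spacing differed. Over the members, RXF393 replicate 2 and SKRC39 replicate 1 were nearly as close as the close pairs. Over all genes their distance was nearer to that between the RXF393 replicates, with 23.4% beyond 2-fold against 28.2%. This difference in spacing was not tested.

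The share of probes detected differed between the arrays as well. It was 37.7% and 33.7% for SKRC39, 33.7% for RXF393 replicate 2, 30.9% for RXF393 replicate 3, 36.5% on the array titled RXF_1 and 30.3% on that titled SKR_3, so the arrays on which Rps7, Rps6 and Rpl27 read lowest had the fewest probes detected. The part of RNA quality or hybridisation in these values was not tested.

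**Figure D3:**
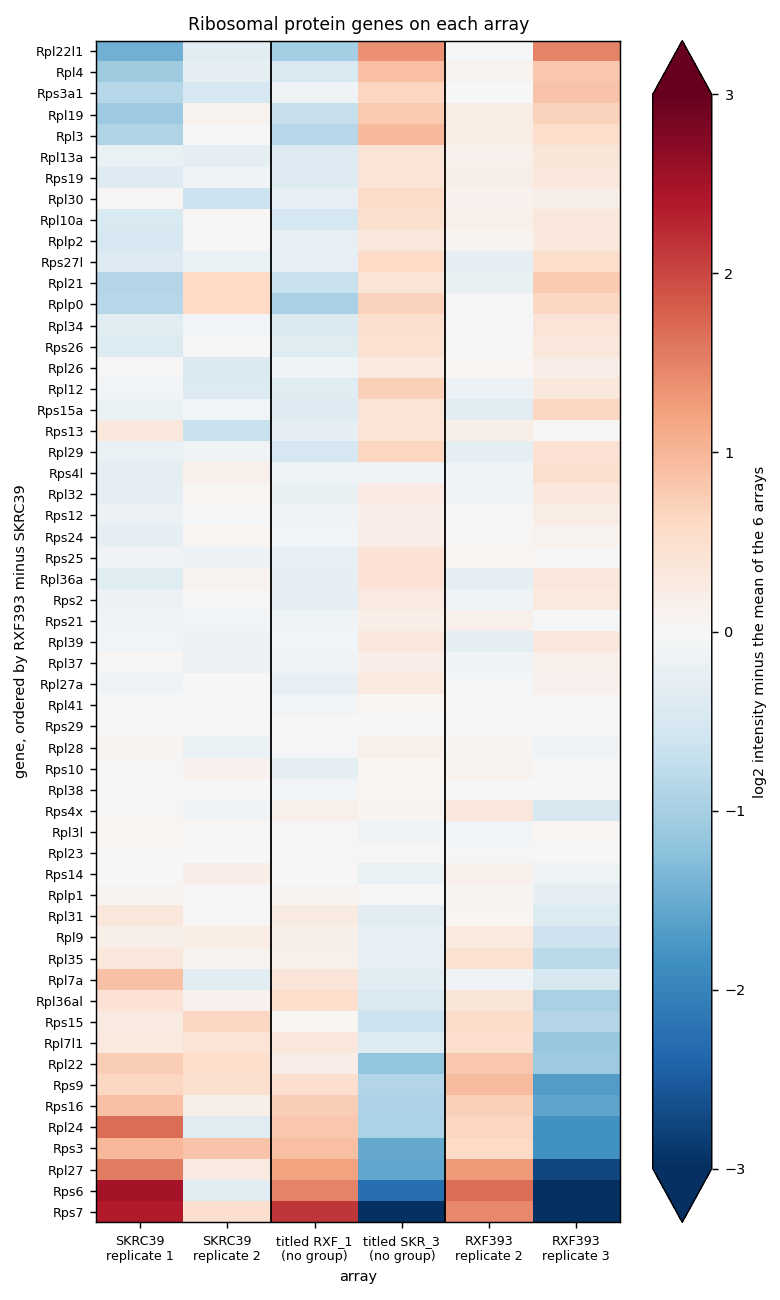
Log2 intensity of each of the 56 tested members on each array, minus the gene's mean over the 6 arrays, with genes ordered by RXF393 minus SKRC39 and the colour scale ending at 3 either way. RXF393 replicate 3 and the array titled SKR_3 have the lowest values, in blue, of Rps7, Rps6 and Rpl27. The SKRC39 arrays differ from each other in these rows, and RXF393 replicate 2 lies between them.

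When all 6 arrays were grouped by characteristics, so that the array titled SKR_3 counted as RXF393 and that titled RXF_1 as SKRC39, 5 members were called higher and 0 lower. That is 8.93% of members higher, where 10.5% of all genes were called higher and 7.81% lower. The 5 were Rpl22l1 with 1.88 ± 0.53, Rpl4 with 1.21 ± 0.32, Rpl3 with 1.16 ± 0.30, Rpl10a with 0.64 ± 0.18 and Rps19 with 0.58 ± 0.13, at adjusted p from 0.0271 to 0.0487 in limma. The share of members called higher was near that of all genes, and the negative values stayed short of the threshold, Rps7 at -3.34 ± 1.20 with an adjusted p of 0.0908 and Rps3 at -1.85 ± 0.57 with 0.0608, both in limma. Grouped by title, 0 members and 0 of all genes were called in limma, with 0 members at an unadjusted p of 0.05.

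The muscle paralogue Rpl3l and its counterpart Rpl3 were read as a pair. Rpl3, which lies near the site of peptide bond formation, read 12.55 and 13.48 in the SKRC39 samples and 13.70 and 13.996 on the RXF393 arrays. The groups did not overlap, and the change was 0.83 ± 0.38 (adjusted p 0.419 in limma). Rpl3l stood at 16.11 on both SKRC39 arrays and at 15.97 and 16.13 on the RXF393 arrays, a change of -0.06 ± 0.19 (adjusted p 0.908 in limma). Rpl3l was within 20% of the highest signal on all 4 arrays, where the scale has little room left, so its values limit what difference could be seen. The difference between the changes of Rpl3 and Rpl3l was not tested.

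Among the other paralogue pairs, Rpl22 had a change of -0.77 beside 1.62 for Rpl22l1, Rpl36a had 0.16 ± 0.37 beside -0.59 ± 0.44 for Rpl36al, and neither member of a pair passed the test. Rps27l, a p53-responsive paralogue of Rps27, stood at 0.42 ± 0.31, Rpl7l1 at -0.67 ± 0.64 and Rpl39 at 0.15 ± 0.28. Rps27, Rpl7, Rpl10, Rpl10l, Rpl5 and Rpl11 were not analysed here.

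The stalk of the large subunit, which recruits elongation factors, is made of Rplp0, Rplp1 and Rplp2. Rplp0, its base, read 9.03 and 10.48 in the SKRC39 samples and 9.82 and 10.51 on the RXF393 arrays, so the groups overlapped and the change was 0.41 ± 0.64. Rplp2 had 0.44 ± 0.25 and Rplp1 -0.16 ± 0.21. None of the stalk genes passed the test, with adjusted p in limma of 0.789, 0.488 and 0.75 for Rplp0, Rplp2 and Rplp1.

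The remaining 31 tested members had changes between -0.61 and 0.45. Over all tested members, 39 had changes under 0.5 either way and 24 under 0.3. Several lie at the bright end of the array: 5 members were within 20% of the highest signal on all 4 arrays (Rpl23, Rpl3l, Rpl38, Rps29 and Rpl41), and 13 on at least 1, where 0.353% of all genes were on all 4. The changes of these 5 ran from -0.06 to 0.06. The median log2 intensity of the members was 14.4 and that of all genes 8.46. At the dim end, Rpl7a was detected on 2 arrays, SKRC39 replicate 1 and that titled RXF_1, so its level in RXF393 has only a bound.

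Different probes of a gene did not always give the same direction. Of 16 members with more than 1 tested probe, 8 had probes of opposite sign, or 50% against 35.9% of the 3456 genes with several tested probes. Among the 8 were Rpl7l1, with -0.67 on its brighter probe and 0.09 on the other, and Rps19, with 0.49 and -0.02. The dimmer probes of Rpl7l1 and Rps19 were each detected on 3 arrays. In 5 members the probes differed by more than 1 on the log2 scale, 31.2% against 35.1%. These were Rps2, Rps24, Rpl23, Rpl27a and Rpl31, and in all but Rps2 the highest change came from a dimmer probe. Changes ran from 0.18 to 1.71 for Rps24 and from -0.06 to 1.09 for Rpl23. They ran from -0.33 to 0.77 for Rpl27a and from -0.35 to 0.66 for Rpl31. The widest gap was in Rps2, a small subunit protein, whose brighter probe read 15.61 and 15.82 on the SKRC39 arrays and 15.67 and 16.08 on the RXF393 arrays. The other Rps2 probe read 15.20 and 12.01 on the SKRC39 arrays and 13.11 and 7.19 on the RXF393 arrays, beside 14.04 for the array titled RXF_1 and 7.67 for that titled SKR_3.

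The brighter Rps2 probe was thus almost level and the other followed the form of Rps7, with changes of 0.16 ± 0.23 and -3.45 ± 1.83. The probes of Rps3, at -1.55 and -0.94, and of Rps9, at -0.90 and -1.64, had the same sign. Of the 62 members, 46 have at least 1 pseudogene entry under their symbol in the RefSeq table, up to 24 for Rpl31. Probe sequences were not used here, so signal from such copies cannot be told apart from the gene's own, and the values of these members are uncertain to that extent.

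**Figure D4:**
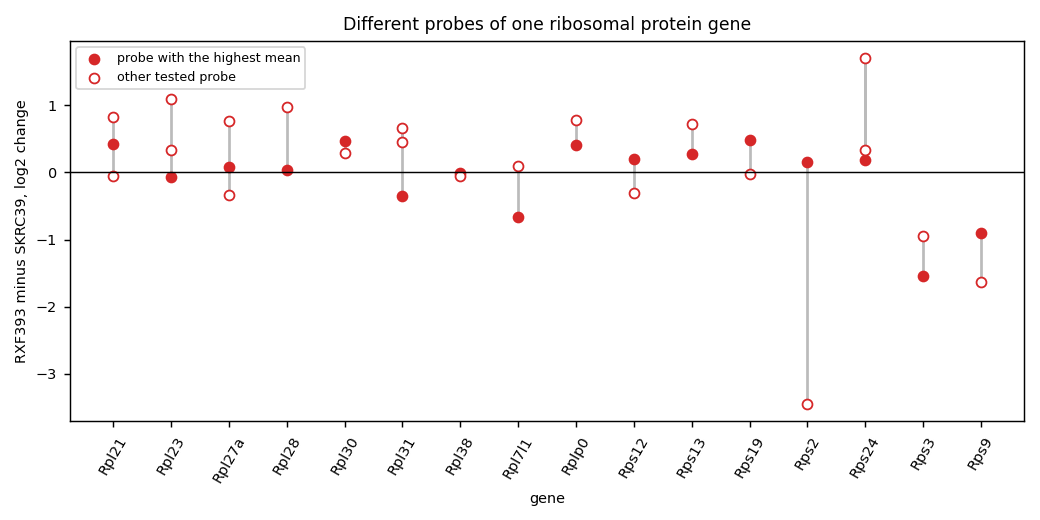
Log2 change, RXF393 minus SKRC39, of each tested probe of the 16 members with more than 1 tested probe, filled for the probe with the highest mean and open for the others. The probes of Rps2 lie at 0.16 and -3.45, the widest gap, and those of 8 members fall on both sides of 0.

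The factors that build ribosomes had a higher median than the ribosomal proteins themselves. Of 37 tested ribosome biogenesis genes, 29 had a positive and 8 a negative change, with a median of 0.87 against 0.15 for the ribosomal proteins, and 0 passed the test. Both RXF393 arrays lay above both SKRC39 arrays for 24 of the 37, or 64.9%, and below for 1, or 2.70%, where 28.1% and 20.6% of all genes had these orders. Npm1, a nucleolar chaperone, read 13.35 and 13.33 in the SKRC39 samples and 14.43 and 15.22 on the RXF393 arrays, a change of 1.48 ± 0.33 (adjusted p 0.159 in limma). Nop58, a core protein of the small nucleolar particles that methylate ribosomal RNA, had 2.11 ± 0.54 (adjusted p 0.201 in limma), and the helicase Ddx21 had 2.25 ± 0.53 (adjusted p 0.18 in limma). Of the 8 negative changes, the lowest were those of Nhp2 at -1.28 ± 1.61, Utp6 at -0.97 ± 0.52 and Nop56 at -0.96 ± 0.71. Utp6 was the gene wholly below.

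For RNA polymerase I, which transcribes ribosomal RNA, 11 of 13 tested genes had a positive change, 0 passed the test and the median was 0.79. Its largest subunit, Polr1a, stood at 0.92 ± 0.34 (adjusted p 0.348 in limma). Of 12 other genes known for a terminal oligopyrimidine tract, 8 were positive, 4 were negative and 0 passed, with a median of 0.26. The highest was Pabpc1, the poly(A)-binding protein, at 1.29 ± 0.55 (adjusted p 0.391 in limma), and the lowest Hnrnpa1 at -0.31 ± 0.82 (adjusted p 0.882 in limma).

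Of 12 tested regulators of ribosomal protein mRNA translation, 1 was called higher and 0 lower, with 6 positive and 6 negative changes and a median of -0.03. Ddit4, an mTORC1 inhibitor, read 9.07 and 9.01 in the SKRC39 samples and 13.81 and 13.92 on the RXF393 arrays, and was higher by 4.83 ± 0.38 (adjusted p 0.0212 in limma). Eif4ebp1, a repressor of cap-dependent initiation, read 12.42 and 12.97 in the SKRC39 samples and 14.85 and 14.87 on the RXF393 arrays, 2.17 ± 0.30 (adjusted p 0.0559 in limma). Larp1, which binds the tract, had 1.34 ± 0.64 (adjusted p 0.428 in limma). Deptor, an mTOR inhibitor, had -1.41 ± 0.66 (adjusted p 0.426 in limma) and Eif4ebp2, a relative of Eif4ebp1, -0.70 ± 0.38 (adjusted p 0.478 in limma). The RXF393 arrays were close to each other for Ddit4, Eif4ebp1 and Larp1 but not for Mtor itself, which read 10.24 and 8.55 there.

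Mitochondrial ribosomal proteins and translation factors were the gene sets most like these. Both were taken by symbol. The translation factors were the symbols with Eif or Eef and a digit, so the set includes enzymes that modify elongation factors. Of 72 tested mitochondrial ribosomal proteins, 29 were positive and 43 negative, with a median of -0.17, and 8, or 11.1%, lay wholly above and 21, or 29.2%, wholly below SKRC39. Of 48 tested translation factors, 34 were positive and 14 negative, with a median of 0.32, and 21, or 43.8%, lay wholly above and 3, or 6.25%, wholly below. Over all genes these shares were 28.1% and 20.6%. In both sets 0 genes passed the test in limma, and differences between the sets were not tested.

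**Figure D5:**
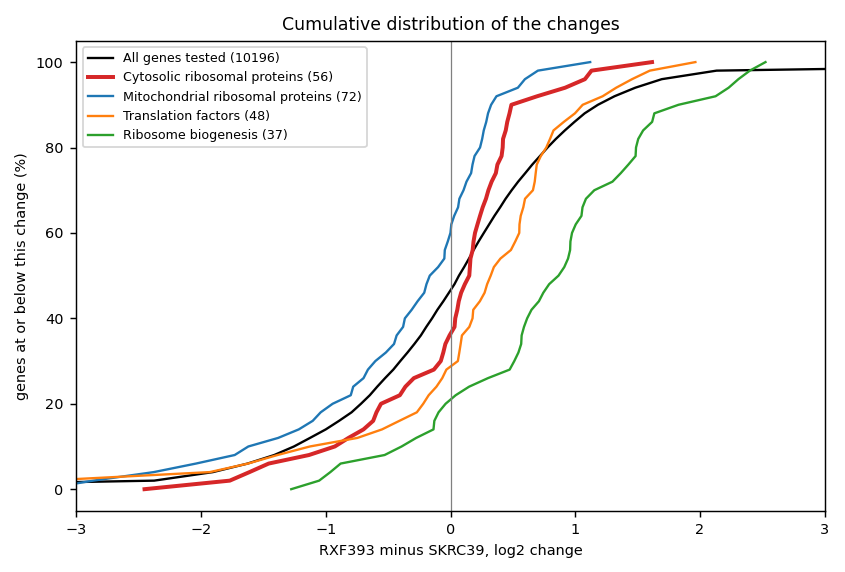
Cumulative share of genes (percent) against the log2 change, RXF393 minus SKRC39, for the 56 cytosolic ribosomal protein genes, 72 mitochondrial ribosomal protein genes, 48 translation factors, 37 ribosome biogenesis genes and all 10196 genes tested. The cytosolic curve is steep around its median of 0.15, and the biogenesis curve lies to the right with a median of 0.87.

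Markers were read for the tissue and for other cells. All 10 skeletal muscle fibre markers were detected on every array. Of 14 neutrophil markers 7 were tested, of which 1, Lcn2, was called higher, and only Lcn2, S100a8 and S100a9 were detected on all 6 arrays. Others, such as Chil3 and Retnlg, passed the detection filter on 3 arrays, so their direction carries no weight. The summed normalized intensity of the 14 was 399.9 and 781.9 on the SKRC39 arrays and 14468 and 10883 on the RXF393 arrays, of which Lcn2 alone made up 84.7% on RXF393 replicate 2 and 40.4% on replicate 3. Lcn2 is also made by cells other than neutrophils, and Camp, Cxcr2, Elane, Ltf, Mmp8, Mpo and Ngp were detected on no array.

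Of 8 tested fibroblast markers 0 were called. Of these, 5 were not detected on all 6 arrays, so their direction carries no weight. Among those detected on all 6, Sparc had -3.62 ± 1.16 and Dcn -0.45 ± 0.25, both wholly below SKRC39. Pdgfra, also detected on all 6, had -0.36 ± 0.63 and overlapped. The fibroblast list summed to 33959 and 36801 on the SKRC39 arrays and to 20335 and 23856 on the RXF393 arrays. Dcn made up 76.0% to 93.4% of the sum on each array, and Postn was detected on no array. Of 6 tested erythroid markers 0 were called, with sums of 208945 and 149073 against 220128 and 212921 that are mostly globin signal near the top of the scale. Away from the top, Slc4a1 had a change of 3.65 ± 0.67 (adjusted p 0.113 in limma) and Alas2 one of 2.61 ± 0.53 (adjusted p 0.142 in limma), and neither overlapped between the lines. No listed lymphocyte marker was detected on the 4 grouped arrays. The part of these cells in the ribosomal protein values was not tested.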

How the data were processed

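The deposited non-normalized table gives each probe's linear intensity on every array together with its detection p-value, per the file headers. The authors also deposited intensity after quantile normalization in GenomeStudio 1.9.0, per the labels and the submitters' processing notes, used here as an alternative with a floor of 16. The platform annotation names 1 gene for 34885 of 45281 probes. All 62 members matched the RefSeq table by gene ID. neqc (limma 3.58.1, R 4.3.3) corrected the background from detection p-values, added an offset of 16, which shrinks changes of dim probes, quantile-normalized the arrays and took log2. A probe was kept if 2 or more arrays had a detection p under 0.05, which left 17738. limma (lmFit, eBayes with an intensity trend) compared 2 with 2 arrays. Benjamini-Hochberg adjustment covered every probe kept, and the threshold was 0.05. The probe with the highest 6-array mean stands for its gene. The fit was also run on simulated data with known changes, whose outcome is not given here and carries no weight in the results. Precision is limited by the number of arrays.

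Values are given for members past the threshold, for the 8 with the most positive and the 8 with the most negative change, and, where tested, for the paralogue pairs, the stalk genes, the 5S particle genes Rpl5 and Rpl11 (not analysed here), Rps6 and Rpl13a. Rpl23, Rpl27a, Rpl31, Rpl7a, Rpl10a, Rps2, Rps24 and the bright members were named after their values were seen. The members and lists were chosen with earlier results of these data known.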

Additional observations from a re-analysis of the deposited data

Results flagged for a closer look

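The 2 arrays with conflicting labels enter no comparison of groups and are given here as values. On the array titled RXF_1, 5 of 56 members lay above both SKRC39 arrays and 18 below both, or 8.93% and 32.1%, where 26.8% and 26.9% of all genes did. On the array titled SKR_3, 34 members lay above both SKRC39 arrays and 17 below both, or 60.7% and 30.4%, where 46.1% and 36.2% of all genes did. The line carried by these mice cannot be told from the labels.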

How the results depend on the processing

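The count of 0 members higher and 0 lower was the same with no background correction, median scaling, the authors' normalized table, an offset of 50, both other filters, the mean of a gene's probes and no intensity trend, with medians from 0.12 to 0.23. Median scaling moved the median of all genes to -0.03. With the description's number as a replicate block the counts were also 0, the median was 0.15, 10 members had an unadjusted p below 0.05 and 189 and 167 of all genes were called higher and lower, against 20 and 16. The 2 pairs that share a number had deviations correlated at 0.51 over probes, too few pairs to show pairing. No intensity trend and median scaling left 0 of all genes called in limma. Detection on all 6 arrays, which tests 7274 genes, gave 94 higher and 53 lower among all genes.

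Grouping 6 arrays by characteristics gave 5 members higher. By title the median was -0.0444, and signs turned for Rpl3 (-0.0568), Rps6 (0.0574), Rps7 (0.0735), Rpl3l (0.00468), Rps27l (-0.00456), Rpl36a (-0.128), Rpl39 (-0.0381) and Rplp0 (-0.28). This grouping mixes arrays whose characteristics differ.

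Leaving out each array in turn, which leaves a lone array assumed to vary like the other line, gave 0 members higher, 0 to 5 lower and a median from 0.0378 to 0.189. The 5 came without RXF393 replicate 2. Log2 changes ran from -1.72 to 0.185 for Rpl22, -2.21 to 0.412 for Rps9, -2.1 to 0.19 for Rps16, -3.62 to 0.369 for Rpl27, -4.16 to 0.592 for Rps6 and -4.92 to 0.012 for Rps7. They ran from -0.135 to 0.0221 for Rpl3l, -0.145 to 0.467 for Rpl36a, -1.26 to 0.074 for Rpl36al, -1.49 to 0.154 for Rpl7l1, -0.15 to 0.446 for Rpl39, -0.307 to 1.13 for Rplp0 and -0.333 to 0.016 for Rplp1. Of the values of single genes under all alternatives, 344 kept direction and side of the threshold, 9 came to pass it and 22 turned sign. The cause was not tested.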
